A study of Mus musculus with 24 samples.

Results

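The collagen genes of the mouse were followed through single cell RNA sequencing of subcutaneous Panc02 tumors, a transplantable mouse pancreatic cancer line. All features whose symbol reads Col, a number, a, and a number were taken, with no use of their measured levels, which gave 44 genes of 32285. Male C57BL/6 mice aged 6–7 weeks at the start were implanted with Panc02 cells under the skin. The 8 treatments were PancVAX given or not, crossed with anti–PD-1 given or not and with anti–CTLA-4 given or not, so that isotype control–treated mice had no agent and the triple combination had all 3. PancVAX is a neoantigen peptide vaccine (50 µg of each peptide, days 12 and 19), which was mixed with AddaVax and a STING agonist, and PBS was given in its place. Anti–PD-1 (100 µg, from day 12) and anti–CTLA-4 (100 µg, days 15 and 22) are checkpoint antibodies. The study's methods date the harvest to day 38, while a figure legend gives an earlier day for these cells, and tumors were pooled within a treatment. For each treatment a library was made of the suspension as dissociated (whole tumor) and, in a separate library, after Percoll density separation to enrich immune cells (Percoll), which makes 16 libraries. A library is thus a pool of mice, and the preparation cannot be told apart from the sequencing batch. No treatment was replicated within a preparation. *P* values for an agent therefore rest on a spread that mixes differences between pools with interactions between agents, and these cannot be separated. In paired tests between groups of cells or between preparations, *P* values measure the spread of the paired differences. The sources do not say whether the same mice went into both libraries of a treatment.

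Collagens are proteins of the extracellular matrix in which 3 chains wind into a triple helix. Fibrillar collagens (type I, made of the *Col1a1* and *Col1a2* chains, type III from *Col3a1*, and type V) form the fibers of connective tissue and are a known product of fibroblasts. Type IV chains, such as *Col4a1* and *Col4a2*, form the sheet-like network of basement membranes under endothelium and epithelium. Type VI (*Col6a1*, *Col6a2*, *Col6a3*) forms beaded filaments, and type VIII (*Col8a1*) forms short-chain networks. The multiplexins *Col15a1* and *Col18a1* lie at basement membranes, and a fragment of the *Col18a1* product is endostatin. *Col7a1* makes the anchoring fibrils of skin, *Col17a1* is a membrane collagen of the junctions that hold basal keratinocytes to their base, and *Col12a1* and *Col14a1* attach to the surface of fibers. Pancreatic cancers are known for a dense collagen-rich stroma, which is made mostly by fibroblasts.

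Start-site sequence is shown for 4 collagens that lead the collagen RNA of a gate below (*Col1a2* and *Col3a1* of stromal cells, *Col18a1* of tumor cells, though its level was highest in endothelial cells, and *Col17a1* of keratinocytes). Each is the 150 bases before the start site in RefSeq for build GRCm38.p6, read 5′ to 3′ on the strand of the gene, with capitals for a CCAAT box (CCAAT, or ATTGG on the other strand), TATAAA, or a GC box (GGGCGG, or CCGCCC on the other strand).
*Col1a2*, chr6:4505468-4505617, plus strand: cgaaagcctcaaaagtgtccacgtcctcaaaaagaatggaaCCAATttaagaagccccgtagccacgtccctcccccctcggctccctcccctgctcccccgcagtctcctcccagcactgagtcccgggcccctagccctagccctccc
*Col3a1*, chr1:45311388-45311537, plus strand: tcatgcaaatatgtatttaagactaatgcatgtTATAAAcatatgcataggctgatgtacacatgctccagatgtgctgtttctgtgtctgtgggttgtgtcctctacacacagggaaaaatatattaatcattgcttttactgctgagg
*Col18a1*, chr10:77166531-77166680, minus strand: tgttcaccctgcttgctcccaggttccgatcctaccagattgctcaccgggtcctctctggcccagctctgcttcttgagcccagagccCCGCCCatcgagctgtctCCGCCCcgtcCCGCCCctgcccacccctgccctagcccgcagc
*Col17a1*, chr19:47692043-47692192, minus strand: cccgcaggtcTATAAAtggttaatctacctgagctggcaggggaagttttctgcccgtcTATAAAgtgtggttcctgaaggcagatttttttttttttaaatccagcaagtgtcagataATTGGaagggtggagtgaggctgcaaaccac
The *Col1a2* window held CCAAT with its first base 109 before the start, and the *Col3a1* window held TATAAA at 117. The *Col17a1* window held TATAAA at 140 and 91 and ATTGG at 31. The *Col18a1* window held none of these but CCGCCC at 61, 43, and 33. All 44 genes had RefSeq coordinates, on 15 chromosomes, and 35 had a start-site entry. Over 250 bases before the start and both strands, CCAAT stood in 13 of 38 collagen windows and in 33.8% of all 32851 windows. TATAAA stood in 5 of 38 and in 12.4% of all, and GGGCGG in 22 of 38 and in 32.7% of all. A match is a description of the letters and not a site.
*Col4a1* and *Col4a2* lie head to head, with start sites 21 bases apart. The 22 bases that both start sites enclose are shown because the counting strand is not given and reads of both 5′ ends may be shared. They were not marked in capitals, though they hold the letters GGGCGG, and are on the plus strand:
*Col4a1* and *Col4a2*, chr8:11312805-11312826: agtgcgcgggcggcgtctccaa

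Libraries held 77132398–176233225 UMIs (counted molecules), with a median of 5164.5–14503 UMIs per cell over 4881–10640 cells. In all, 120886 barcodes passed limits on quality. No cell annotation was used, and cells were gated by counts of markers, none of them a collagen. A pair of libraries shared 36–147 barcode sequences, at most 1.64% of the smaller. A barcode also seen in another library was held by 75 of the 424 stromal cells, beside 17453 of all 120886 (14.4%). In the stromal gate the 14 stromal markers summed to 144 UMIs per 10000 (*Dcn* 33.1) and *Epcam* was at 0. In the tumor gate *Krt8* was at 8.27 and *Krt18* at 12.3 UMIs per 10000, but *Epcam* was near 0 (0.0331) and the stromal markers summed to 7.61, so that these cells were called tumor by their keratins. In the keratinocyte gate *Krt14* was at 81.5 and the 9 keratinocyte markers summed to 247 (1.304 to 558 between libraries), but the tumor markers, keratins among them, summed to 29.1, above the 21.4 of the tumor gate (*Krt8* 10.8, *Krt18* 12.6). No doublet caller was run, and the part of tumor cell RNA in this gate was not tested. *Pecam1* was at 9.67 in the endothelial gate and *Ptprc* at 5.42 in the leukocyte gate.

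Collagen RNA was concentrated in the stromal gate. Its 424 cells, 0.351% of those that passed, held 24.1% of all collagen UMIs, at 406 UMIs per 10000. The 56449 tumor cells held 50.1% of collagen UMIs at 5.53 per 10000, and 504 endothelial cells stood at 55.4 per 10000. The 269 keratinocytes were at 8.40 and the 40466 leukocytes at 0.379 per 10000. A collagen UMI was seen in 100% of stromal cells, 96.7% of tumor cells, 99.0% of endothelial cells, 95.2% of keratinocytes, and 16.2% of leukocytes, at median depths of 17105, 19306, 11015, 9222, and 3995 UMIs per cell. Among stromal cells the level ran from 124 per 10000 at the 10th percentile to 807 at the 90th, around a median of 369. A further gate of 1240 cells with *Sox9* and 3 to 7 stromal markers but few keratins (Sox9 keratin-low) was at 11.7 per 10000, and 16 mural cells were at 328. Cells in no gate held the rest of the collagen UMIs, so that shares of the gates do not sum to 100%.

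The genes fell into groups by the gate, among 5 that exclude leukocytes and mural cells, where their level was highest in whole tumor libraries. The stromal gate was highest for 27 genes, the Sox9 keratin-low gate for 7, the endothelial gate for 6, and the keratinocyte and tumor gates for 2 each. The stromal genes included every fibrillar chain except *Col2a1*, the chain of cartilage, whose highest level was 0.174 CPM (UMIs of the gene per 1000000 UMIs of the gate). *Col11a2* was placed there at 1.07 CPM, with 6 UMIs in stromal cells of all 16 libraries. The endothelial genes were *Col4a1*, *Col4a2*, *Col13a1*, *Col15a1*, *Col18a1*, and *Col9a2*, the last with 1 UMI there. The keratinocyte genes were *Col17a1* and *Col4a6*. Those of the Sox9 keratin-low gate were *Col28a1* (31.8 CPM), *Col4a5* (27.2), *Col22a1* (8.33), *Col9a1* (1.39), *Col20a1* (1.04), *Col9a3* (0.521), and *Col2a1*. The placing of *Col9a1*, *Col20a1*, *Col9a3*, and *Col2a1* rests on few UMIs. The genes highest in the tumor gate, *Col19a1* and *Col25a1*, had 1 and 9 UMIs there in all 16 libraries, and *Col6a4* and *Col26a1*, placed in the stromal gate, had 2 UMIs each there in whole tumor libraries. A UMI counts a captured RNA molecule once, so that levels of different genes are compared per captured molecule. Whether capture differed with the length of the RNA was not tested.

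**Figure D1:**
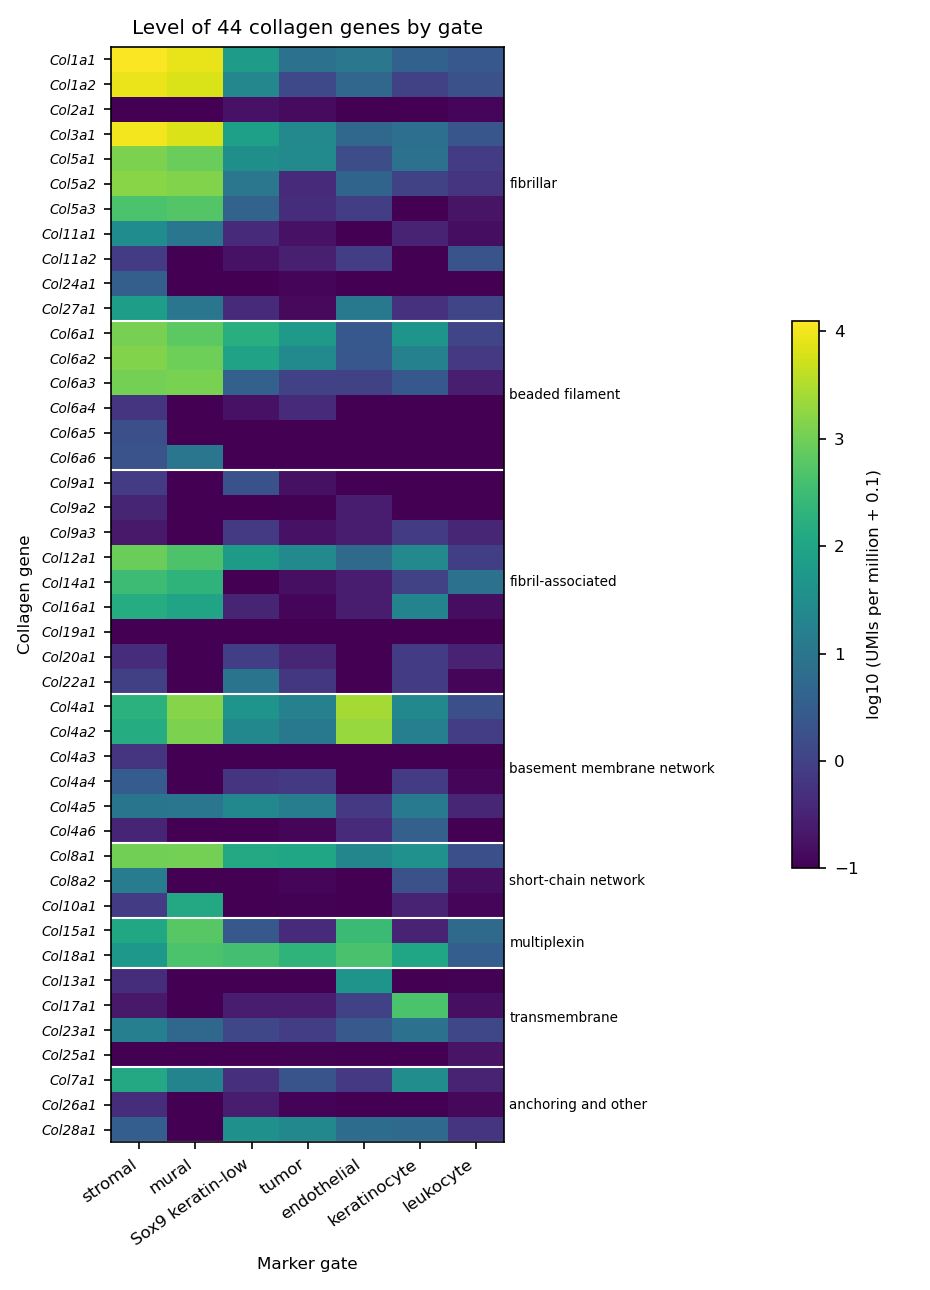
The 44 collagen genes (rows, ordered by structural class, with white lines between classes) in 7 marker gates (columns). Color is the log10 of CPM plus 0.1 with all 16 libraries summed. The fibrillar and beaded filament rows, except *Col2a1* and *Col11a2*, are brightest in the stromal or mural column, *Col4a1* and *Col4a2* in the endothelial column, and *Col17a1* in the keratinocyte column.

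Stromal cells were led by the chains of type I and type III collagen. *Col1a1*, *Col3a1*, and *Col1a2* made 75.5% of stromal collagen UMIs, fibrillar chains together made 83.7%, and the beaded filament chains 8.82%. In the 8 whole tumor libraries *Col1a1* ranged from 10947 to 17229.8 CPM (median 12856, mean 13543 ± 2138, SD, n = 8). *Col3a1* ranged from 6749 to 13968 (median 10701) and *Col1a2* from 8324 to 12949.5 (median 9416). These 3 genes overlapped in range, and each stood above every other stromal collagen. The next level held type V and type VI chains, with *Col5a2* at 1670.0 over the whole tumor libraries, *Col6a2* at 1473, *Col5a1* at 1326, *Col6a1* at 1221, and *Col6a3* at 1209.5. *Col8a1* was at 1124 and *Col12a1* at 932 CPM. The basement membrane chain *Col4a1* was at 165, and *Col2a1*, *Col19a1*, and *Col25a1* had no UMI in any stromal cell. The 16 mural cells, which are too few for a test, were led by the same 3 chains, with fibrillar chains at 73.9% of their collagen UMIs.

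Tumor cells were led by *Col18a1*, which made 37.1% of their collagen UMIs and was seen in 82.9% of cells. *Col18a1* ranged from 159.5 to 241 CPM in whole tumor libraries (median 217). *Col8a1* ranged from 77.5 to 119 (median 95.8) and *Col6a1* from 36.7 to 79.8 (median 51.6). *Col18a1* was above *Col8a1* in every library, since their ranges did not overlap, while the ranges of *Col8a1* and *Col6a1* overlapped at their ends. Fibrillar chains made 11.5% of tumor collagen UMIs. They were led by *Col5a1* (27.7) and *Col3a1* (26.1, seen in 32.6% of cells), and *Col1a1* was at 7.96 (9.18% of cells). The type VI chain *Col6a2* was at 25.1, *Col12a1* at 24.9, *Col28a1* at 20.9, *Col4a1* at 17.0, *Col4a5* at 14.0, and *Col4a2* at 11.5 CPM. All 44 genes had at least 1 UMI in the 56449 cells. The stromal markers summed to 7.61 per 10000 in this gate, and their part in its collagen levels was not tested.

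Between the tumor and stromal gates of the same library, 30 collagens passed the filter on low counts. The test was edgeR's quasi-likelihood test on UMIs summed by library and gate, with libraries paired (n = 8 whole tumor libraries), Benjamini-Hochberg adjustment over all genes, and a call at an adjusted *P* under 0.05 with a log2 fold change over 0.5 in size. Of the 30, 24 were lower in tumor cells, 3 were higher, and 3 were not called (*Col6a4*, *Col20a1*, *Col22a1*), beside 52.9% of all genes called (28% higher, 24.9% lower). A gene could pass the filter through the gate where it is high, so that these counts are a description. The same holds for every count against stromal cells below. *Col28a1* was higher by 2.98 ± 0.35 on the log2 scale (SE), *Col18a1* by 2.19 ± 0.22, and *Col4a5* by 0.60 ± 0.24 (adjusted *P* = 0.0392), which is 8.14-, 4.63-, and 1.56-fold in summed CPM. The *Col4a5* call was lost with DESeq2, in Percoll libraries, with stricter gates, and without each of 4 libraries (adjusted *P* from 0.0672 to 0.177). With the upper limits on genes and UMIs of the study's methods the *Col28a1* call was lost too (2.17, edgeR adjusted *P* = 0.107), in a fit that kept 3 libraries in place of 8. Levels in stromal cells were above those in tumor cells 1651-fold for *Col1a1*, 7432-fold for *Col1a2*, and 415-fold for *Col3a1*, but 23.2-fold for *Col6a1*, 11.7-fold for *Col8a1*, and 9.71-fold for *Col4a1*. The 6 largest falls were those of *Col16a1* (13796-fold, on 7 UMIs in tumor cells), *Col1a2*, *Col5a2*, *Col14a1*, *Col27a1*, and *Col1a1*, with log2 fold changes from -13.41 to -10.83. The median collagen stood at -5.92, beside 0.15 over all genes tested.

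The Sox9 keratin-low gate, whose cells had *Sox9* at 7.28 and *Krt18* at 2.61 UMIs per 10000, held a mixture led by *Col18a1* (32.6% of collagen UMIs). *Col18a1* was at 404 CPM in whole tumor libraries, *Col6a1* at 178, *Col8a1* at 124, *Col6a2* at 104, *Col3a1* at 69.1, and *Col12a1* at 65.2. *Col4a1* (46.0), *Col28a1* (31.8), *Col5a1* (31.1), and *Col4a5* (27.2) followed. The same leading 3 genes as in tumor cells thus led here, at higher CPM. Against stromal cells all 24 collagens that passed the filter were called, 3 higher (*Col28a1* 3.35, *Col18a1* 2.78, and *Col4a5* 1.24 on the log2 scale) and 21 lower, beside 51.7% of all genes (24.6% higher, 27.1% lower). As for tumor cells, this count is a description. *Col1a2* fell by 11.94, *Col6a3* fell by 10.76, and *Col5a2* fell by 10.41 on the log2 scale, with 18, 4, and 8 UMIs left in this gate. In Percoll libraries *Col4a5* was not called (0.66, edgeR adjusted *P* = 0.139).

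Collagen RNA of endothelial cells was mostly that of basement membranes. *Col4a1*, *Col4a2*, and *Col18a1* gave 92.4% of their collagen UMIs. *Col4a1* ranged from 2161 to 3370.0 CPM (median 2529), *Col4a2* from 1864 to 2848 (median 1983), and *Col18a1* from 242 to 664 (median 415). *Col15a1*, the other multiplexin, ranged from 178 to 367 (median 316) and overlapped *Col18a1*. *Col13a1*, a membrane collagen, ranged from 17.3 to 108 (median 43.6). *Col1a1* was listed at 0 in 5 of the 8 libraries and reached 98.6 in mice given PancVAX and anti–PD-1. Over all 16 libraries 9 of 504 endothelial cells had a *Col1a1* UMI, and 51 of the 70 UMIs were in 1 cell. *Col8a1* was at 29.9, *Col27a1* at 14.5, *Col12a1* at 10.5, and *Col3a1* at 9.26. All 21 collagens that passed the filter were called against stromal cells, beside 49.4% of all genes (23.6% higher, 25.8% lower). This count is a description, since a gene could pass the filter through the stromal gate. Higher were *Col4a2* by 3.73 ± 0.17 and *Col4a1* by 3.71 ± 0.17 on the log2 scale (15.9- and 15.6-fold), *Col18a1* by 2.93 ± 0.20 (9.85-fold), and *Col15a1* by 1.22 ± 0.22 (2.66-fold), whose call was lost with the upper limits of the methods, which left 3 libraries (0.95, edgeR adjusted *P* = 0.224). *Col13a1* was at least 74.1-fold higher, with 154 UMIs against 0 in stromal cells of whole tumor libraries and a floor of 3 counts over the group. The 16 others were lower, and the largest falls included *Col3a1* (1170-fold), *Col1a2* (1044-fold), *Col6a1* (792-fold), and *Col6a2* (682-fold). Of the 32 endothelial *Col3a1* UMIs over all 16 libraries, 25 were in 1 cell. As single libraries were left out, the log2 fold change ran from -12.69 to -10.22 for *Col3a1* and from -13.55 to -10.23 for *Col1a2*.

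Keratinocytes, the cells of the epidermis, were rare, and only 3 whole tumor libraries held at least 10, all from mice given PancVAX. *Col17a1* made 54.6% of their collagen UMIs. It was at 721 CPM with PancVAX and anti–PD-1 (47 cells), 314 with PancVAX and anti–CTLA-4 (14 cells), and 67.5 with all 3 agents (10 cells). The Percoll libraries of the same treatments gave 671, 682, and 207, so that the triple combination was lowest in both preparations. The markers of the gate moved with it. In the same order the keratinocyte markers summed to 399, 144, and 65.3 UMIs per 10000 in the whole tumor libraries and to 372, 304, and 108 in the Percoll libraries. The tumor markers summed to 7.08, 21.9, and 69.9 and to 7.53, 26.4, and 63.8. Their part in the *Col17a1* levels was not tested. *Col18a1* was at 87.7, *Col7a1* at 39.4, *Col8a1* at 38.8, *Col12a1* at 23.9, *Col16a1* at 20.9, and *Col6a1* at 19.7 in the whole tumor libraries. Of 21 collagens that passed the filter, 19 were called against stromal cells (n = 3 libraries, 21.3% of all genes, 6.9% higher and 14.4% lower). As in the other gates, this count is a description. *Col17a1* was at least 246-fold higher (648 UMIs against 0). The other 18 were lower, among them *Col1a2* (0 UMIs against 13961, at least 4080-fold), *Col1a1* (1 UMI against 19039, ratio 16690, exact counting interval 2995–659261), and *Col3a1* (1287-fold). *Col7a1* and *Col18a1* were not called, with *Col18a1* at a log2 fold change of 0.29. A stricter gate called *Col18a1* higher (1.75, edgeR adjusted *P* = 0.012), and DESeq2 called *Col7a1* lower (-2.63, adjusted *P* = 0.0331).

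The ratio between chains that share a triple helix differed between gates for types I, V, and VI. *Col1a1* to *Col1a2*, the chains of type I collagen, stood at 1.36 UMIs to 1 in stromal cells (up to 1.61 over 16 libraries) and at 6.41 in tumor cells (2.97–22.4). *Col4a1* to *Col4a2* stood at 1.25 in endothelial cells (1.07–1.39), 1.25 in stromal cells (0.909–1.59), and 1.56 in tumor cells (1.22–1.95). *Col6a1* to *Col6a2* stood at 0.862 in stromal cells (0.766–0.994) but 2.18 in tumor cells (1.88–2.44). The stromal and tumor ranges did not overlap for types I and VI and overlapped for *Col4a1* to *Col4a2*. The widest gap was type V, with *Col5a1* to *Col5a2* at 0.790 in stromal cells (0.510–0.978) and 84.6 in tumor cells (43.0–199). In the minor type IV chains *Col4a5* had 17384 UMIs in tumor cells and *Col4a6* 20, while keratinocytes had 58 and 16. Both type I chains were seen in 404 of 424 stromal cells (95.3%), and *Col4a1* with *Col4a2* in 469 of 504 endothelial cells (93.1%) and 213 stromal cells (50.2%). Reads of the overlapping 5′ ends of *Col4a1* and *Col4a2* may be shared between them.

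Genes that process, cross-link, or bind collagen were read from a list of 42. Against stromal cells, 36 of the 40 tested were lower in tumor cells (24.9% of all genes) and 2 were higher (28%), *Ddr1*, a collagen receptor of epithelium (2.16 ± 0.19 on the log2 scale), and *P3h2*, a prolyl hydroxylase known to act on type IV collagen (10527 UMIs in tumor cells and 1 in stromal cells of whole tumor libraries). The list's median was -2.79 beside 0.15 over all genes. *Serpinh1*, the collagen chaperone, was at 3232 CPM in stromal, 1456 in endothelial, and 23.1 in tumor cells, while the prolyl hydroxylase subunit *P4hb* differed by -0.88 on the log2 scale. The cross-linking enzymes *Lox* and *Loxl2* fell by 7.99 and 11.95 on the log2 scale in tumor cells. In endothelial cells 29 of 33 were lower (25.8% of all genes) and 3 higher (23.6%), the integrin chains *Itga1* (1.49) and *Itga2* (3.13) and the lysyl hydroxylase *Plod1* (1.04). In leukocytes 36 of 38 were lower (26.5% of all genes, with 35.3% higher) and *Lair1*, a collagen receptor of immune cells, was higher, at 176.5 CPM beside 0 in stromal cells.

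**Figure D2:**
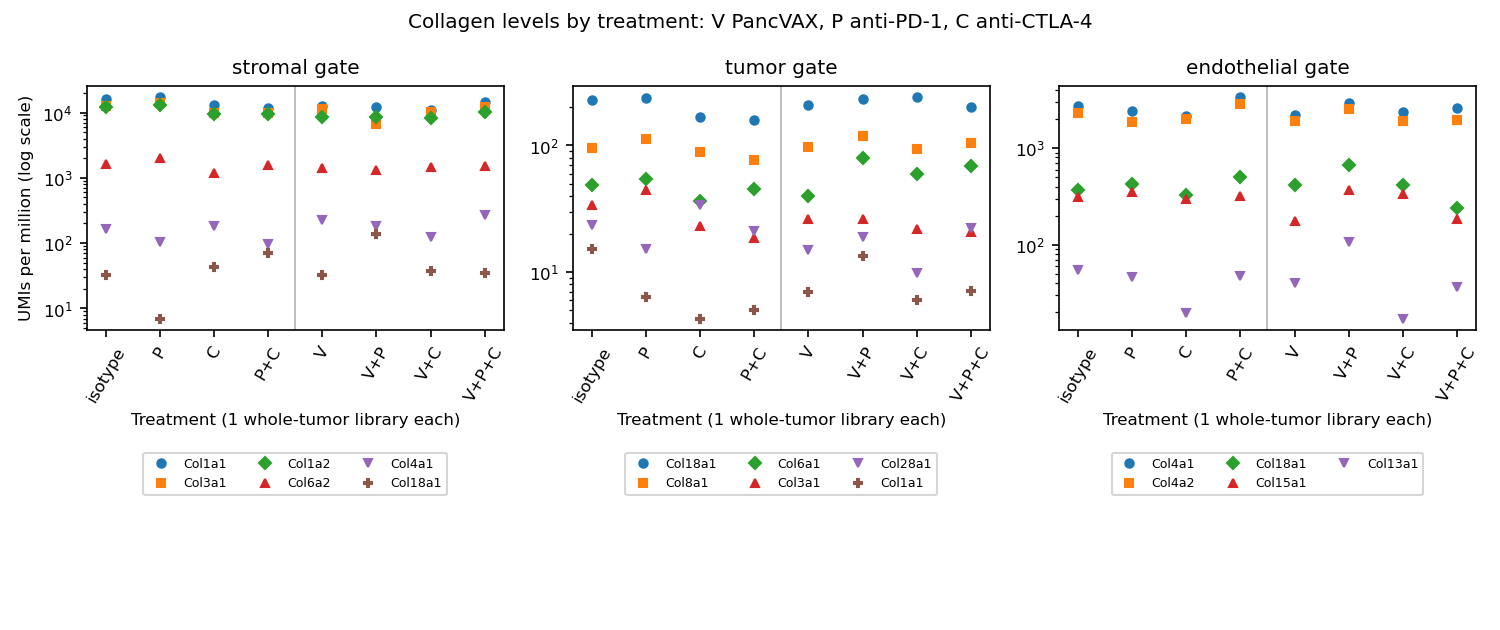
Collagen levels in CPM (log axes) in the stromal, tumor, and endothelial gates of the 8 whole tumor libraries, 1 point per gene and library, with a gray line between treatments without and with PancVAX. *Col18a1* in the stromal gate runs from 7.00 to 138, both in libraries of 14 stromal cells, while the leading genes of each gate stay within a narrow band.

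The design asks whether each agent changed the tumor. For each agent the 4 whole tumor libraries with it were set against the 4 without it, with the other agents in the model. Values by treatment are given in the order isotype control, anti–PD-1, anti–CTLA-4, both antibodies, then the same with PancVAX. In stromal cells total collagen was 519.8, 590.0, 424, and 408 UMIs per 10000 without PancVAX and 430.3, 376, 396, and 491 with it. Mice given PancVAX had the lower median (413 against 472), but the groups overlapped. In the Percoll libraries the values were 425, 413, 393, and 434 without PancVAX and 289, 362, 313, and 406 with it, again with the lower median (337 against 419) and an overlap.

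No stromal collagen was called for PancVAX by edgeR (0 of 22, and 0 with DESeq2, beside 0.0277% of all genes). An unadjusted *P* under 0.05 was seen for 2, beside 4.43% of all genes. *Col1a2* was at 12179, 12949.5, 9443, and 9389 CPM without PancVAX and at 8418, 8449.5, 8324, and 10104 with it. Only the triple combination lay within the range of the mice without PancVAX, and the fitted log2 fold change was -0.34 ± 0.14 (edgeR adjusted *P* = 1). *Col1a1* (-0.23 ± 0.14) and *Col3a1* (-0.23 ± 0.20) had the same sign, and *Col8a1* (0.48 ± 0.20), *Col4a1* (0.49 ± 0.29), and *Col18a1* (0.29 ± 0.50) the opposite sign, none of them called. *Col6a1* was at -0.14, the collagen median was -0.16, and 6 of 22 fold changes were above 0. Without the library given PancVAX and anti–PD-1 the sign turned for *Col18a1* (-0.29), *Col3a1* (0.03), and *Col6a1* (0.05), and that of *Col18a1* turned also without anti–PD-1 alone. *Col18a1* reached 138 with PancVAX and anti–PD-1 and 7.00 with anti–PD-1 alone. Both libraries held only 14 stromal cells, and over all 16 libraries a single stromal cell held up to 28 of the 440 *Col18a1* UMIs. For anti–PD-1 (0 of 22, DESeq2 0, 0% of all genes called, 1 at an unadjusted *P* under 0.05 beside 3.62% of all genes) the gene with that *P* was *Col27a1* (0.47 ± 0.18). For anti–CTLA-4 (0 of 22, DESeq2 0, 0% of all genes called, 1 at an unadjusted *P* under 0.05 beside 4.52% of all genes) it was *Col11a1* (-1.58 ± 0.63). With no filter on low counts *Col11a1* was called (-1.57, edgeR adjusted *P* = 0.000299), but its fold change had the opposite sign in Percoll libraries (1.58) and ran from -2.25 to -0.98 as single libraries were left out, the last without isotype control. *Col5a1* was at 1409, 2296, 1406, and 1255 without anti–CTLA-4 and 1251, 1189, 1172, and 1125 with it. These groups did not overlap, as for 3.82% of all genes.

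In tumor cells no collagen was called for any agent by edgeR (0 of 26 each). For anti–CTLA-4, 5 collagens had an unadjusted *P* under 0.05 and all 5 were lower with it (*Col7a1*, *Col12a1*, *Col3a1*, *Col1a1*, *Col5a1*), beside 11.9% of all genes with such a *P* and 0.0137% called. *Col7a1* was at 3.27, 3.95, 3.23, and 3.304 CPM in the libraries without anti–CTLA-4 and at 1.34, 1.10, 1.90, and 2.03 in those with it. The Percoll libraries gave 2.22, 2.595, 3.14, and 2.77 against 1.01, 1.19, 1.21, and 1.16, so that the groups did not overlap in either preparation. In whole tumor libraries 4.8% of all genes separated, and the share in Percoll libraries was not computed. The fitted log2 fold change of *Col7a1* was -1.10 ± 0.18 (edgeR adjusted *P* = 0.194). DESeq2 called it (-1.09, adjusted *P* = 4.86e-05), as did edgeR with no filter on low counts (adjusted *P* = 0.0264).

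*Col3a1* in tumor cells was at 33.6, 44.5, 26.2, and 26.3 CPM without anti–CTLA-4 and at 23.3, 18.5, 22.0, and 20.7 with it. The Percoll values were 28.2, 37.7, 28.2, and 24.5 against 24.0, 22.5, 21.8, and 19.3. Neither preparation overlapped, and here too no share of all genes was computed for Percoll libraries. The log2 fold change of *Col3a1* was -0.56 ± 0.14 (edgeR adjusted *P* = 0.241), and DESeq2 called it (-0.55, adjusted *P* = 0.0035). *Col12a1* was at 25.4, 63.2, 32.6, and 31.8 against 22.1, 15.3, 15.0, and 15.5 (-1.09 ± 0.25, edgeR adjusted *P* = 0.223, DESeq2 0.0593), and its Percoll groups overlapped. In whole tumor libraries these 3 of 26 collagens separated by anti–CTLA-4, beside 4.8% of all genes. *Col1a1* did not separate, with 15.2 in isotype control–treated mice and 13.4 with PancVAX and anti–PD-1 standing above 4.30–7.14 in the other libraries (-0.89 ± 0.30, edgeR adjusted *P* = 0.348). The tumor collagen median was -0.23 for anti–CTLA-4 beside 0.00 over all genes. *Col18a1* differed by -0.21 ± 0.10.

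For PancVAX in tumor cells 6 of 26 collagens had an unadjusted *P* under 0.05, beside 17% of all genes (DESeq2 0 called, 0% of all genes called by edgeR). *Col4a1* was at 17.1, 11.7, 8.19, and 17.8 CPM without PancVAX and at 18.1, 18.3, 24.0, and 20.8 with it. *Col4a2* was at 12.7, 7.99, 6.74, and 11.2 without and at 12.9, 13.7, 14.2, and 13.6 with it. The groups of both genes did not overlap, as for 10.3% of all genes, and the Percoll groups of *Col4a1* overlapped (18.2, 13.2, 9.99, and 21.4 against 20.6, 19.0, 27.2, and 19.5). The log2 fold changes were 0.43 ± 0.18 for *Col4a2* (edgeR adjusted *P* = 0.294) and 0.34 ± 0.14 for *Col6a1* (0.287). *Col18a1*, the leading collagen, was at 227, 238, 168, and 159.5 without and 208, 235, 241, and 200.2 with PancVAX (0.11 ± 0.10). For anti–PD-1 (3 at an unadjusted *P* under 0.05 beside 9.31% of all genes, DESeq2 0, 0.00683% of all genes called) *Col6a1* (0.37 ± 0.14) and *Col6a2* (0.39 ± 0.16) were among the 3.

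**Figure D3:**
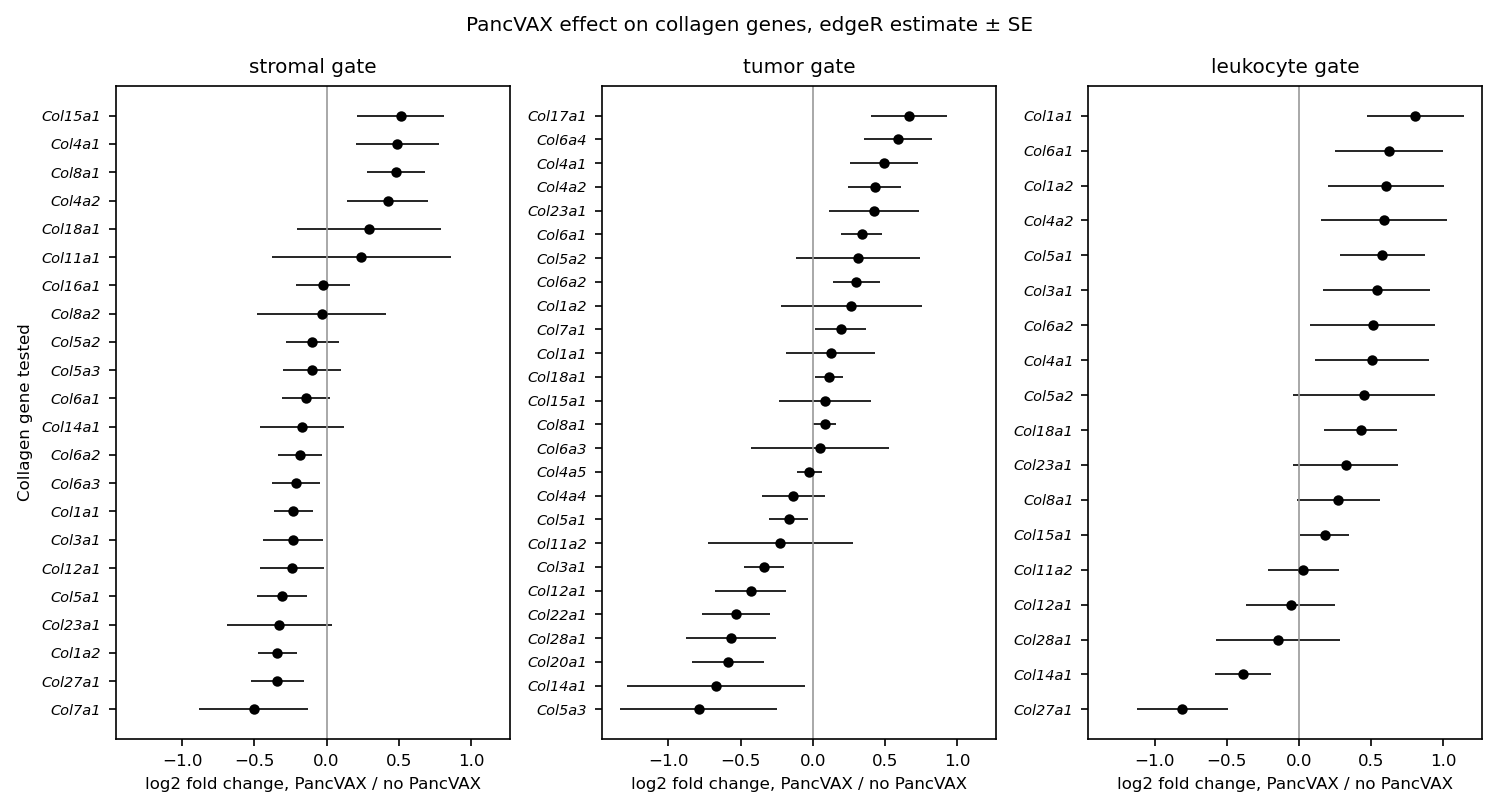
Fitted log2 fold change with PancVAX (edgeR, point) and its SE (bar) for each collagen tested in the stromal, tumor, and leukocyte gates of the 8 whole tumor libraries, ordered by size. No gene passed the threshold, and *Col4a1* lies to the right of 0 in all 3 gates.

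Endothelial collagens were not called for any agent by edgeR or DESeq2 (0 of 6 each), and none separated by PancVAX (3.7% of all genes did) or by anti–CTLA-4 (2.73%). *Col4a1* was at 2719, 2438, 2161, and 3370.0 CPM without PancVAX and 2202, 2910.1, 2346, and 2620.4 with it, in overlapping ranges (-0.13 ± 0.13). *Col4a2* differed by -0.17 ± 0.14, and 1 gene had an unadjusted *P* under 0.05 for PancVAX, *Col8a1* (1.34 ± 0.45, edgeR adjusted *P* = 0.521, beside 6.67% of all genes, with 0.0167% called). It rested on 2 to 28 UMIs a library and ran from 0.77 without isotype control to 2.29 without anti–PD-1 alone, and edgeR with no filter on low counts called it (adjusted *P* = 0.0371). Anti–PD-1 had 2 such genes (*Col13a1* 0.91 ± 0.30, *Col4a1* 0.28 ± 0.13, beside 5.59% of all genes, with 0% called), and anti–CTLA-4 had 1 (*Col13a1* -1.12 ± 0.31, beside 4.35%, with 0.0167% called). *Col13a1* was at 54.6, 47.1, 40.2, and 108 without and 19.9, 47.2, 17.3, and 36.3 with anti–CTLA-4, and the groups overlapped, though edgeR with no filter on low counts called it lower (-1.13, adjusted *P* = 0.0446).

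Whether PancVAX acted differently on tumor and stromal collagens was tested as a product of gate and agent. No collagen was called by edgeR (0 of 30, DESeq2 0, 0.199% of all genes called, 6 at an unadjusted *P* under 0.05 beside 3.69% of all genes). The smallest *P* was that of *Col7a1* (0.73 ± 0.25, edgeR adjusted *P* = 0.661), and *Col6a1* differed by 0.47 ± 0.18 (0.927). Keratinocyte collagens were not tested by treatment. The 3 whole tumor libraries with at least 10 of these cells all came from mice given PancVAX, which leaves none to set against it, and the antibodies were not compared within these 3. Of the 42 genes that process or bind collagen, none was called for an agent in these 3 gates by edgeR, and 0 to 6 of those tested had an unadjusted *P* under 0.05 in a comparison. The 6 were of 34 tested in tumor cells, for PancVAX and for anti–CTLA-4, where 17% and 11.9% of all genes had such a *P*.

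Leukocytes held few collagen UMIs, spread over many genes at low levels except for a few that were high in 1 leukocyte class. Free RNA in the suspension is known to give droplets UMIs of genes that their cell does not express. Of 28 collagens tested against stromal cells, 26 were lower in leukocytes and none was higher (61.8% of all genes called, 35.3% higher and 26.5% lower, median -8.10 beside 0.20 over all genes). Here too a gene could pass the filter through the stromal gate, and the count is a description. *Col11a2* (1.22, edgeR adjusted *P* = 0.0834) and *Col20a1* were not called, though *Col11a2* was called higher in Percoll libraries (2.97, edgeR adjusted *P* = 0.00659). With the upper limits of the methods, which left 3 libraries, the calls of *Col18a1* (-1.98, edgeR adjusted *P* = 0.0596) and *Col23a1* (-3.22, edgeR adjusted *P* = 0.181) were lost. The *Col28a1* call was lost with stricter gates (-1.49, edgeR adjusted *P* = 0.0734) and without the library given PancVAX alone (-1.25, edgeR adjusted *P* = 0.129). As a share of the stromal level, *Col1a1* in leukocytes was at 0.0209%, *Col3a1* at 0.0216%, and *Col1a2* at 0.0198%. The share was 2.63% for *Col14a1*, 5.04% for *Col15a1*, and 1.56% for *Col27a1*. The ratio of *Col1a1* to *Col1a2* was 1.43 in leukocytes, 1.33 in T cells, and 1.44 in macrophages or monocytes, beside 1.36 in stromal and 6.41 in tumor cells. Between libraries it ran from 0.875 to 3.86 in leukocytes and from 2.97 to 22.4 in tumor cells, and these ranges overlapped. The ratio of *Col6a1* to *Col6a2* was 1.70 in leukocytes, 1.62 in T cells, and 1.58 in macrophages or monocytes, beside 0.862 in stromal and 2.18 in tumor cells. As a share of the tumor level, *Col18a1* was at 1.61%, *Col8a1* at 1.68%, *Col6a1* at 1.82%, *Col4a5* at 1.91%, and *Col28a1* at 1.98%.

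*Col14a1* was the leading leukocyte collagen (22.0% of collagen UMIs) and was high in macrophages or monocytes. It was at 15.0 CPM there, 0.189 in T cells, 0.527 in neutrophils, and 0 in dendritic cells. A UMI was seen in 1480 of 16139 macrophages or monocytes (9.17%, exact 95% interval 8.73%–9.63%, median depth 7037 UMIs) and 14 of 14423 T cells (0.0971%, depth 3950). None of 607 dendritic cells had one at a depth of 11182, which allows a share of cells with a UMI of up to 0.494% and sets no limit on the share that express the gene. Every library had *Col14a1* in macrophages or monocytes, above all T cell values. Intervals cover counting error only, and shares were not thinned to a common depth.

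*Col15a1* was high in neutrophils, the shallowest class, at 57.9 CPM (474 of 5465 cells, 8.67%, depth 1561). It was at 5.05 in macrophages or monocytes (3.74% of cells) and 0.730 in T cells (0.333%). *Col23a1* was high in dendritic cells, at 12.1 (66 of 607 cells, 10.9%), beside 0.865 in T cells (0.430%) and 0.395 in macrophages or monocytes (0.273%). *Col11a2* was at 3.24 in macrophages or monocytes and 0.243 in T cells. *Col27a1* was at 2.24 in T cells, 3.51 in dendritic cells, and 0.285 in macrophages or monocytes. For comparison, *Col1a1* was at 2.58 in T cells, 2.07 in macrophages or monocytes, 3.298 in B cells, 1.69 in dendritic cells, and 6.74 in neutrophils. *Col18a1* was at 3.42, 2.84, 5.72, 0.910, and 7.69 in the same classes.

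**Figure D4:**
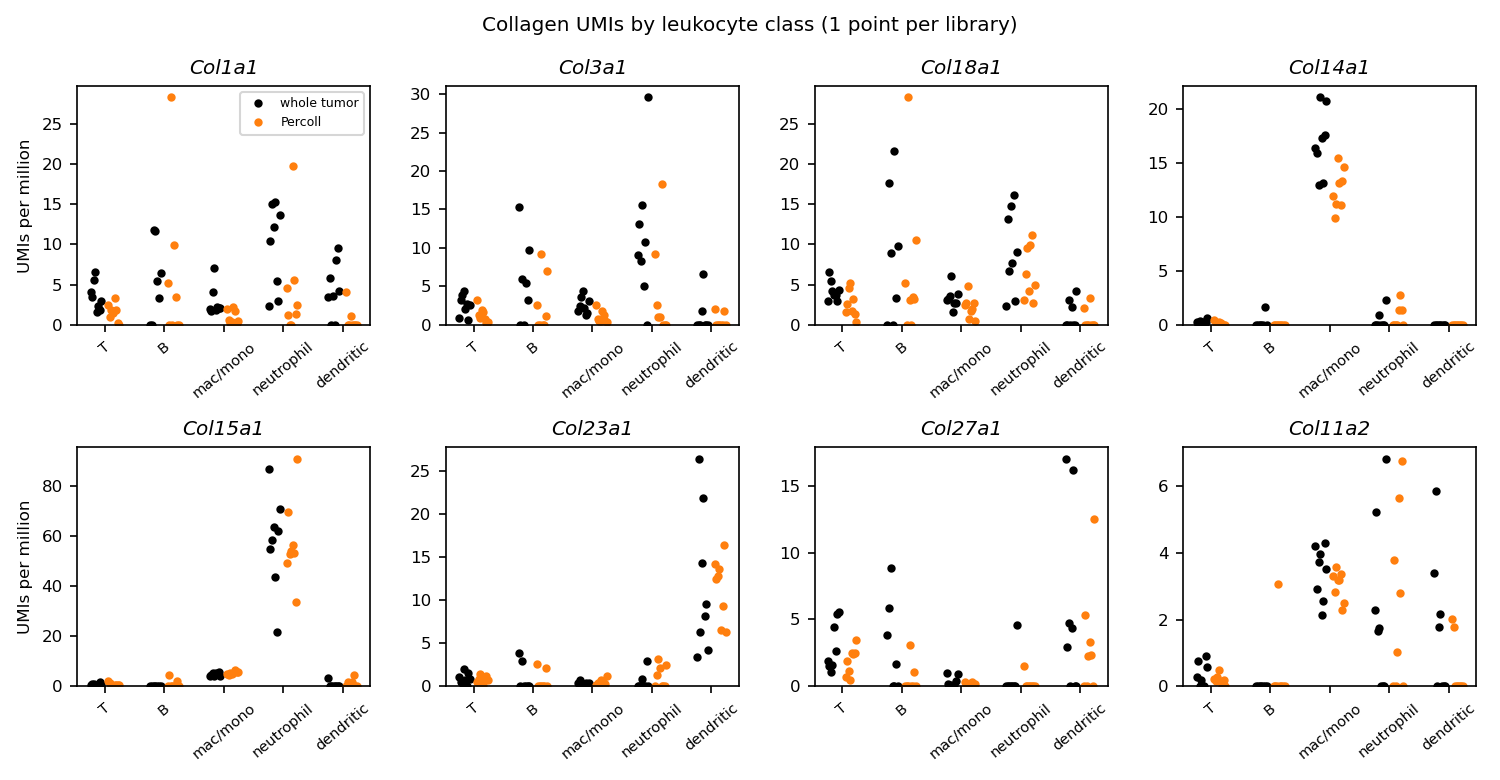
CPM of 8 collagen genes in 5 leukocyte classes, 1 point per library (black, whole tumor, and orange, Percoll). *Col14a1* lies above 9 in macrophages or monocytes of every library and near 0 in T cells, and *Col15a1* lies above 20 in neutrophils of every library.

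In leukocytes of the whole tumor libraries total collagen was at 0.514, 0.366, 0.368, and 0.355 UMIs per 10000 without PancVAX and at 0.404, 0.429, 0.676, and 0.419 with it. PancVAX and anti–CTLA-4 together gave the highest value, and isotype control–treated mice lay above the other 3 PancVAX libraries, so that the groups overlapped. No collagen was called for PancVAX by edgeR (0 of 18, DESeq2 0, 2.1% of all genes called, 2 at an unadjusted *P* under 0.05 beside 22.9% of all genes), with *Col1a1* at 0.81 ± 0.34 (edgeR adjusted *P* = 0.203) and *Col27a1* at -0.81 ± 0.31 (0.172). The median was 0.44 beside 0.00 over all genes, and 14 of 18 were above 0. Without the whole tumor library given PancVAX alone, *Col1a1* (1.11, edgeR adjusted *P* = 0.032) and *Col18a1* (0.71, adjusted *P* = 0.0404) were called. Anti–PD-1 (0 of 18, DESeq2 0, 0.0077% of all genes called, *Col5a1* and *Col4a2* at an unadjusted *P* under 0.05 beside 11.6% of all genes) and anti–CTLA-4 (0 of 18, DESeq2 0, 0% of all genes called, 0 at an unadjusted *P* under 0.05 beside 3.79%) also gave none by edgeR. *Col4a2* was at 1.03, 0.770, 0.902, and 2.30 CPM without anti–PD-1 (10 to 41 UMIs) and at 0.240, 0.611, 0.765, and 0.358 with it (3 to 10 UMIs). These groups did not overlap (-1.30 ± 0.44, edgeR adjusted *P* = 0.351), and 3.31% of all genes separated in either direction. Its Percoll groups overlapped (0.314–0.900 without and 0.348–0.998 with anti–PD-1). No collagen separated by anti–CTLA-4, beside 1.58% of all genes. Of 29 tested genes that process or bind collagen, 1 was called for PancVAX, beside 2.1% of all genes. This was the integrin chain *Itgb1*, which was higher (0.66 ± 0.07, edgeR adjusted *P* = 0.00375). T cells were 605 of 2542, 558 of 2084, 578 of 2028, and 577 of 1976 cells of the gate without PancVAX. With it they were 819 of 2323, 1431 of 2864, 1133 of 3487, and 1021 of 2297. The part of this mix in the differences was not tested.

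The Percoll libraries were compared with the whole tumor libraries of the same treatment. The median of total collagen in leukocytes was 0.294 UMIs per 10000 after Percoll (0.252–0.371) against 0.411 in whole tumor (0.355–0.676), and it was lower in 7 of 8 treatments. Among T cells the medians were 0.183 and 0.272, and among macrophages or monocytes 0.327 and 0.438, each lower in 8 of 8. Of 18 collagens tested in leukocytes, 5 were lower and none higher by edgeR (n = 8 pairs), beside 8.43% of all genes called and 3.58% lower. An unadjusted *P* under 0.05 was seen for 9 of the 18, beside 49.9% of all genes. The share of all genes that was lower in as many treatments was not computed. The collagen median was -0.55 beside -0.01 over all genes. Without treatment as a block 3 of 14 were called, beside 758 of 12472 genes.

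*Col14a1* was at 14.3, 11.0, 9.16, 10.5, 10.4, 5.74, 12.3, and 8.41 CPM in leukocytes of the whole tumor libraries, in the order of treatments above. It was at 8.64, 6.54, 6.53, 7.73, 6.38, 4.37, 7.31, and 4.76 in the Percoll libraries, lower in 8 of 8 treatments (-0.62 ± 0.07, edgeR adjusted *P* = 1e-05). *Col1a1* was at 2.65, 2.16, 2.85, 2.14, 2.55, 5.35, 7.24, and 2.77 in whole tumor and 0.388, 0.259, 1.84, 3.14, 2.63, 0.998, 0.707, and 0.813 in Percoll libraries. It was lower in 6 of 8 treatments, not with both antibodies or PancVAX alone (-1.33 ± 0.38, adjusted *P* = 0.0132 by edgeR). *Col3a1* (-1.13 ± 0.32, adjusted *P* = 0.0128 by edgeR) was lower in 6 of 8, and *Col8a1* (-0.71 ± 0.25, 0.0387) and *Col18a1* (-0.59 ± 0.20, 0.0273) in 7 of 8. *Col1a2* had a like size (-1.05 ± 0.42) but was not called (0.062 by edgeR), though DESeq2 called it (0.0245). The *Col8a1* call was lost with DESeq2 (0.0505), without the block, and without each of 5 treatments in turn, and the *Col18a1* call without the block and without each of 3 treatments. *Col15a1*, which among leukocytes was highest in neutrophils, was lower in 3 of 8.

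**Figure D5:**
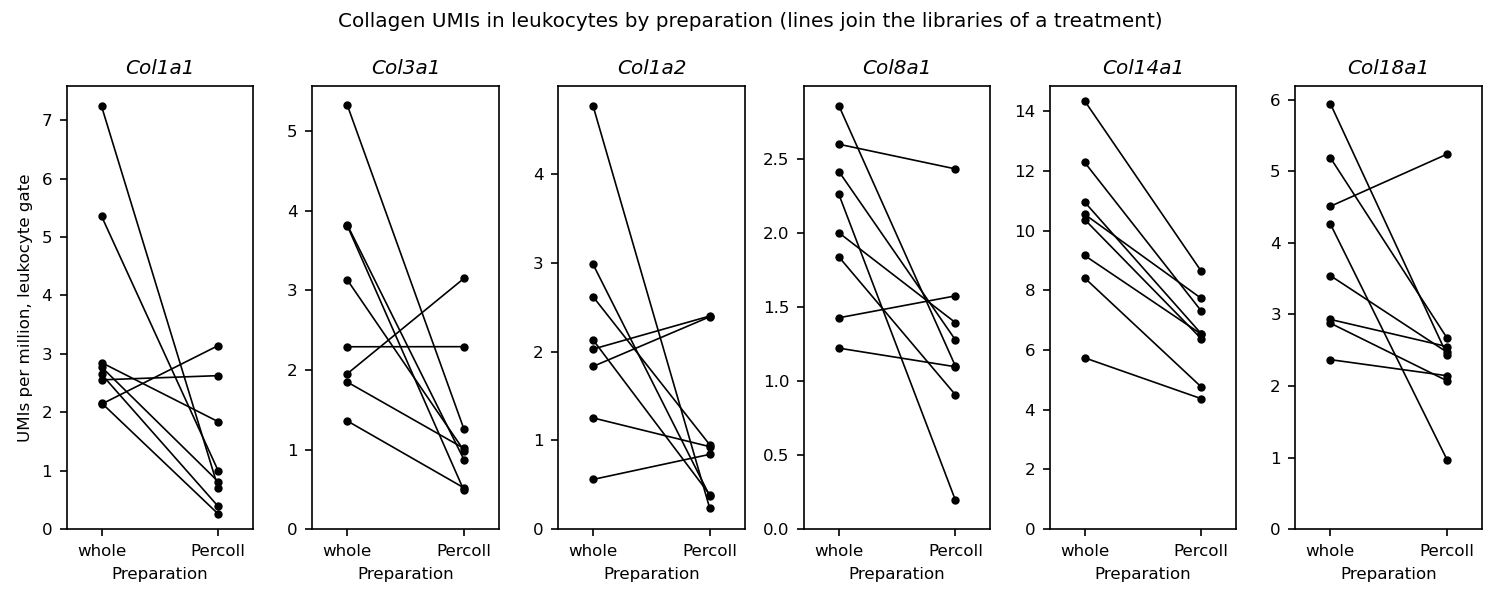
CPM of 6 collagen genes in the leukocyte gate of whole tumor and Percoll libraries, with lines that join the libraries of a treatment. *Col14a1* falls along every line, *Col8a1* and *Col18a1* along 7 of 8, and *Col1a1* along 6 of 8.

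Markers of other cells moved in the same leukocytes. The 7 tumor markers summed to 0.409 UMIs per 10000 in whole tumor (0.251–0.618) and 0.338 in Percoll libraries (0.247–0.421), lower in 7 of 8 treatments. The stromal markers summed to 0.197 (0.144–0.373) and 0.171 (0.113–0.277), lower in 5 of 8. Macrophage markers were at 149 and 135 (lower in 7 of 8), while T cell markers were at 15.6 and 20.5 and neutrophil markers at 18.5 and 25.2, lower in none. Their part in the collagen difference was not tested. For *Col14a1* the shift was also measured within macrophages or monocytes, at 17.3 CPM in whole tumor and 12.5 in Percoll libraries, lower in 8 of 8. Of 29 tested genes that process or bind collagen, *Ddr2* (-1.11, edgeR adjusted *P* = 0.000861) and *Pcolce2* were lower in Percoll leukocytes and none was higher. Of all genes in leukocytes 8.43% were called, 3.58% lower and 4.85% higher. Of 35 tested in tumor cells, the prolyl hydroxylase subunit *P4ha3* was higher (1.02, edgeR adjusted *P* = 0.0145, with 28 UMIs in all whole tumor libraries) and *Lair1* was lower (-0.67, edgeR adjusted *P* = 0.0154). Of all genes in tumor cells 7.05% were called, 4.13% higher and 2.92% lower.

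In the other gates few collagens were called between preparations. No stromal collagen was called (0 of 21 by edgeR, DESeq2 0, 0.236% of all genes called, 7 at an unadjusted *P* under 0.05 beside 10.3% of all genes), and the collagen median was -0.23. Stromal *Col1a1* (-0.32 ± 0.08, edgeR adjusted *P* = 0.141) and *Col6a2* (-0.35 ± 0.12, edgeR adjusted *P* = 0.28) were lower in Percoll libraries in 8 of 8 treatments, and total stromal collagen in 7 of 8. In tumor cells 11 of 28 collagens had an unadjusted *P* under 0.05, beside 54.1% of all genes. Of the 28, 1 was called, *Col23a1*, a membrane collagen, beside 7.05% of all genes. It was at 0.248, 0.0832, 0.159, 0.126, 0.294, 0.263, 0.214, and 0.130 CPM in the whole tumor libraries and at 1.79, 0.933, 1.05, 0.824, 0.727, 2.56, 1.51, and 0.850 in the Percoll libraries. All Percoll values lay above all whole tumor values (2.68 ± 0.17, edgeR adjusted *P* = 1.02e-07), and the share of all genes that separate in this way was not computed. *Col28a1* differed by less than the fold limit (0.35 ± 0.05, edgeR adjusted *P* = 9.77e-05), as did *Col6a1* (0.20 ± 0.06, edgeR adjusted *P* = 0.00814) and *Col8a1* (0.08 ± 0.02, edgeR adjusted *P* = 0.0128), all 3 higher in 8 of 8 treatments. The share of all genes higher in 8 of 8 treatments was not computed. The stromal markers in this gate were at 7.05 and 8.70 UMIs per 10000, higher in Percoll libraries in 8 of 8 treatments, and their part was not tested. In the Sox9 keratin-low gate 1 of 16 was called (1.83% of all genes, 6 at an unadjusted *P* under 0.05 beside 18.2% of all genes). It was *Col1a2* (2.86 ± 0.62, edgeR adjusted *P* = 0.0174). It rested on the Percoll libraries of anti–CTLA-4 (213.5 CPM) and both antibodies (56.9), and was 1.43 (adjusted *P* = 0.229) without the first pair and 2.54 (0.0663) without the second. *Col23a1* in tumor cells did not pass the filter with the upper limits of the methods. No endothelial (0 of 6, 1 at an unadjusted *P* under 0.05 beside 12.8% of all genes, 1.09% called) or keratinocyte collagen (0 of 10, 2 at an unadjusted *P* under 0.05 beside 3.05% of all genes, n = 3 pairs, 0% called) was called by edgeR or DESeq2.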

How the data were processed

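The authors sequenced Chromium Single Cell 5′ libraries on a NextSeq 500 in 2 batches, 1 for each preparation. Per the labels and the submitters' processing notes, reads were counted with Cell Ranger 4.0.0 on mm10 and analysed in Seurat. The deposited matrix holds raw UMI counts per gene and barcode for 16 RNA libraries. The sources used here do not name the strand counted. The deposited T cell receptor contigs were not used.

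Barcodes with at least 200 genes, 1000 UMIs, under 10% mitochondrial UMIs, and under 1% hemoglobin UMIs were kept. The upper limits of the methods (3000 genes, 10000 UMIs) were not applied, since they remove 76.4% of stromal and 83.9% of tumor cells. Gates asked for a UMI of at least 8 of 14 stromal, 2 of 7 tumor, 4 endothelial, 4 keratinocyte, 3 mural, or 4 of 6 leukocyte markers, with limits on markers of other classes. No doublet caller was run. UMIs were summed by library and gate of at least 10 cells and tested with edgeR 4.0.16 (quasi-likelihood, TMM, filterByExpr, two-sided, Benjamini-Hochberg over all genes tested), in place of MAST on single cells. The SE of a log2 fold change was derived from the test, as its size over the square root of the quasi-likelihood F statistic. Agents were tested over the 8 whole tumor libraries with the other agents as covariates, preparations with treatment as a block, and gates with library as a block. The scripts were tested on simulated data. Results were also computed with DESeq2 1.42.0, stricter gates, every gene kept in the fit, the upper limits of the methods, Percoll libraries, no treatment block, and each library left out. R 4.3.3 and Python 3.11.15 were used, with matplotlib 3.10.9, SciPy 1.17.1, pandas 2.3.3, and NumPy 2.4.6.

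The members, marker lists, and the list of 42 genes that process or bind collagen were chosen with earlier results of these data known. Named were all collagens called in a comparison (or, where more than 12 were called, the 6 largest rises and falls), the 10 highest of each gate, 8 collagens in every comparison where tested, and chain pairs. Cells of a library are not replicates, and shares of cells carry exact binomial 95% intervals or a floor of 3 counts, which cover counting error only. Library totals of 77132398–176233225 UMIs set the depth.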

Additional observations from a re-analysis of the deposited data

Results flagged for a closer look

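Of 60 groups of 4 whole tumor libraries with or without PancVAX, 8 had a library whose distance from the nearest of the others, over the range of the group, was past Dixon's 95% critical value for 4 samples. Chance flags about 1 in 20 groups. Levels are given in CPM.

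With PancVAX and anti–PD-1 given together, 4 values stood apart among the libraries given PancVAX. *Col18a1* in stromal cells was at 138.13, on 14 cells, beside 32.6, 34.6, and 37.4. *Col1a1* in tumor cells was at 13.417, beside 6.01, 7.00, and 7.14. *Col4a2* in endothelial cells was at 2511.9, beside 1892, 1907, and 1947. All collagens together in endothelial cells were at 6940.3, beside 4817, 5099.7, and 5128.

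The triple combination stood apart for *Col1a2* in stromal cells, at 10104 beside 8324, 8418, and 8449.5. In leukocytes all collagens together were at 67.641 with PancVAX and anti–CTLA-4, beside 40.4, 41.9, and 42.9. Among libraries without PancVAX, isotype control–treated mice had all collagens in leukocytes at 51.425, beside 35.5, 36.6, and 36.8. In the same libraries *Col6a1* in leukocytes was at 1.3567, beside 0.560, 0.688, and 0.693.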

How the results depend on the processing

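In 16 comparisons the reported count of called collagens was 0, a floor against which a count that stays at 0 shows nothing of stability, and other settings called at least 1 there for 9 of 85 values. In the 8 comparisons with calls, 32 of 39 values under other settings and, in the 7 where a library could be left out, 58 of 80 values without a library lay within 1.5 times of the reported count. No named gene that was called changed direction. With DESeq2 the anti–CTLA-4 comparison in tumor cells called 2 of 26 collagens, beside 102 of all 14638 genes. The Percoll comparison in Sox9 keratin-low cells called 0 of 16, beside 67 of 8637 genes. With no filter on low counts, PancVAX in endothelial cells called 4 of 26 collagens, beside 90 of all 14759 genes. Anti–CTLA-4 called 1 of 26 in endothelial (41 of 14759 genes) and 1 of 36 in stromal cells (94 of 15813). In tumor cells it called 1 of 41 (49 of 22996). Percoll called 5 of 32 in Sox9 keratin-low (320 of 17046) and 3 of 28 in endothelial cells (192 of 15903). It called 1 of 30 in keratinocytes (64 of 15822) and 2 of 41 in stromal cells (158 of 16908). Stricter gates were chosen for leukocyte totals after seeing the data. They called 1 of 28 collagens (65 of 13813 genes) in the test of PancVAX between tumor and stromal cells. For Percoll in Sox9 keratin-low cells they called 2 of 16 (122 of 7890 genes). With the upper limits of the methods Percoll called 0 of 15 in tumor (281 of 10746 genes) and 0 of 10 in Sox9 keratin-low cells (20 of 4477). Without the treatment block, which pairs the preparations, Percoll called 3 of 14 in leukocytes (758 of 12472 genes). In Sox9 keratin-low cells it then called 0 of 12 (50 of 7187 genes). The cause of these differences was not tested.

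Leaving out 1 library gave 0–1 calls for the test of PancVAX between tumor and stromal cells (1 without PancVAX and anti–PD-1), 0–2 for PancVAX in leukocytes (2 without PancVAX alone), and 1–2 for Percoll in tumor cells. It gave 3–8 for Percoll in leukocytes (8 without both antibodies, 3 without isotype control or PancVAX and anti–CTLA-4) and 0–3 for Percoll in Sox9 keratin-low cells. A library left out of a Percoll comparison takes its pair with it. Shares over all genes are not given for these fits, so that their counts have no background beside them. For the agents the replicate numbers pair no libraries, since each treatment has 1 library a preparation, and a fit with the combination of the other 2 agents as a block was not run.

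Counts over all genes differed more. DESeq2 called 46 genes for PancVAX, 102 for anti–CTLA-4, and 48 for anti–PD-1 in tumor cells, where edgeR called 0, 2, and 1. For anti–PD-1 in leukocytes it called 47 against 1. In the test of PancVAX between tumor and stromal cells it called 3 against 29. For PancVAX it called 6 against 2 in stromal and 4 against 1 in endothelial cells, and for anti–CTLA-4 3 against 0 in leukocytes and 2 against 0 in stromal cells. For Percoll it called 67 against 158 in Sox9 keratin-low, 36 against 72 in endothelial, 25 against 15 in stromal cells, and 4 against 0 in keratinocytes. Stromal treatment tests rest on 14–51 cells a library, and the upper limits of the methods left too few stromal cells and keratinocytes for these tests, which were not run. Median collagen in leukocytes was 0.375–0.465 UMIs per 10000 in whole tumor and 0.267–0.311 in Percoll libraries under other gates and limits.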
